A study of Mus musculus with 6 samples.

Results

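The Zfp900-series genes are mouse zinc finger genes whose symbols run from Zfp900 to Zfp999. They were chosen by symbol, with earlier results of these data known, and 32 of the 23420 gene symbols in the count tables met this rule. The libraries came from E14 mouse embryonic stem cells (ESCs) of 2 genotypes, grown with LIF and inhibitors of MEK (PD0325901) and GSK3 (CHIR99021), and the question was how gene expression changes in ESCs without PATZ1, a zinc finger protein that the study examined at chromatin boundaries. WT E14 cells and *Patz1* -/- E14 cells (KO) each had 3 libraries. The design names a single line for each genotype, and the study's methods describe KO lines as single clones made by CRISPR in WT E14 cells, so clone and genotype cannot be told apart. After removal of ribosomal RNA, total RNA was sequenced with strand information, and reads were counted per gene. In bulk RNA such as this, fewer cells of a type and less RNA per cell cannot be told apart.

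Most of these genes encode KRAB zinc finger proteins, a large and fast-changing family of DNA-binding repressors. An array of C2H2 fingers at the C-terminal end reads the DNA sequence, often within a retroelement, and the KRAB domain recruits TRIM28 (KAP1), which brings the histone methyltransferase SETDB1 and leads to H3K9 trimethylation. In ESCs this pathway is known for silencing endogenous retroviruses and for keeping imprints, and many KRAB zinc finger genes lie in clusters of related copies that arose by duplication.

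By the rule for detection, at least 10 counts in at least 3 libraries, 31 of the 32 genes were detected, 29 of them with at least 10 counts in every library. *Zfp957* was the exception, with 2, 1 and 0 counts in WT and 2, 2 and 0 counts in KO. In the GENCODE annotation of GRCm38 (mm10), 31 of the genes were protein coding, and *Zfp939* was a transcribed pseudogene. The genes lay on 11 chromosomes, 10 of them on chromosome 17, 5 on chromosome 7 and 5 on chromosome 8, and none lay on chromosome 11, where *Patz1* is, or on X or Y. For each coding gene, the longest open reading frame of every coding transcript was searched. A pattern of the KRAB A box was found near the start of any such frame in 27 of 31 genes. The exceptions were *Zfp935*, *Zfp945*, *Zfp956* and *Zfp957*. The number of C2H2 fingers, counted in the frame of each gene that held the most, ran from 0 in *Zfp957* to 18 in *Zfp945*, with a median of 11.

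The start regions of 4 genes are shown first, because the comparison of genotypes turns on them: *Zfp951*, the single gene that passed the test, *Zfp953* and *Zfp940*, which passed it with the replicate number as a block, and *Zfp946*, which had the highest log2 fold change. Each sequence holds the 250 bases before a RefSeq transcript start (GRCm38.p6), written 5′ to 3′ on the strand of the gene, at chr5:104860069-104860318 (minus strand) for *Zfp951*, chr13:67360573-67360822 (minus) for *Zfp953*, chr7:29853649-29853898 (minus) for *Zfp940* and chr17:22423952-22424201 (plus) for *Zfp946*. Capitals mark matches to GGGAGGG or to GGGGNGGGG, 2 G-rich words that were searched on both strands because G-rich sequence is what PATZ1 and its relative MAZ are known to bind.
Zfp951: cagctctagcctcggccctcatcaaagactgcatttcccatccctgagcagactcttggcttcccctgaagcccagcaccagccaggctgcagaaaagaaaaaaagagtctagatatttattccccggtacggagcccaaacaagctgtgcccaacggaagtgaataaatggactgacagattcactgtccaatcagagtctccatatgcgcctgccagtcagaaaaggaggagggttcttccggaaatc
Zfp953: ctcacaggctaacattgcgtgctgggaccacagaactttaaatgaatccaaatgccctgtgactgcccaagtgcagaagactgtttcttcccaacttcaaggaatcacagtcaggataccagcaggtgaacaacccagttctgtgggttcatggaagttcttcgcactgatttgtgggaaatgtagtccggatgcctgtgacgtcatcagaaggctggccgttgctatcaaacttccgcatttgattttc
Zfp940: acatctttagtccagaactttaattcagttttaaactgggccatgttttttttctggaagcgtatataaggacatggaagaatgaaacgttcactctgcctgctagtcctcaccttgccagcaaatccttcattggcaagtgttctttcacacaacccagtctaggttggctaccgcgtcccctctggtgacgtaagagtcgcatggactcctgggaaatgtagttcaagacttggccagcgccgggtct
Zfp946: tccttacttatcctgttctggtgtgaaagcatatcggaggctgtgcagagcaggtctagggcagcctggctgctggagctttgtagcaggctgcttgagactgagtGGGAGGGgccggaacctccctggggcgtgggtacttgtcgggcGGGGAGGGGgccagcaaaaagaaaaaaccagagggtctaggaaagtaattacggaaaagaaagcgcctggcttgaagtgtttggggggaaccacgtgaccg

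The RefSeq table held a start region for 29 of the 32 genes and 35 regions in all, of which *Zfp951* had 2 overlapping ones. GGGAGGG was present in 4 of the 35 regions (11.4%), against 19.7% of all 32851 regions in the table, and GGGGNGGGG was present in 2 (5.71%) against 20.6%. The region of *Zfp946* held GGGAGGG 2 times, and its second match lay inside the match to GGGGNGGGG. Neither word was present in the regions shown for *Zfp951*, *Zfp953* and *Zfp940*, nor in the other region of *Zfp951*. These are counts of letters in short windows, not of binding sites.

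The libraries held between 37573923 and 47721070 counts in replicates 1 and 2 of both genotypes, and 11040756 (WT) and 11420268 (KO) in replicate 3. The Zfp900-series genes took 0.0788% to 0.091% of the counts of a library. *Rn45s*, the ribosomal RNA precursor, took 14.4% and 12.5% in replicate 3 of WT and KO and at most 3.03% elsewhere. *Patz1*, in normalized counts, fell from 1888 ± 82.3 to 859 ± 5.01 (WT to KO, mean ± SD, n = 3 libraries), a log2 fold change of -1.14 with a standard error (SE) of 0.10 (adjusted p = 1.57e-26, DESeq2). With chromosome centring, which sets size factors per library and chromosome, the log2 fold change of *Patz1*, on chromosome 11, was -0.86 (DESeq2 adjusted p = 1.33e-13). It was also -0.86 with the replicate block added (DESeq2 adjusted p = 3.35e-22). Normalized counts are counts divided by the DESeq2 size factor of the library. Of the 6 ESC markers, all were present in every library and 0 of 6 passed the test (with the replicate block 2 passed, *Pou5f1* and *Zfp42*, both higher in KO), with summed normalized counts of 97030 to 101710 in WT and 105585 to 108637 in KO.

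Detected Zfp900-series genes spanned a wide range of levels, from a mean of 26.9 normalized counts over the 6 libraries (*Zfp964*) to 3750 (*Zfp961*). Over 1000 normalized counts were found for 6 genes, and 2 (*Zfp939* and *Zfp964*) were under 100. Per kb of annotated exon, which allows levels to be set between genes, the range ran from 3.53 (*Zfp964*) to 1127 (*Zfp936*), with a median of 119.

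*Zfp936* had the highest level per kb in WT, 1132 ± 57.2 normalized counts per kb, and in KO the level was 1122 ± 80.2. *Zfp961* came next, with 873 ± 23.3 in WT and 857 ± 15.8 in KO. The gap between these genes was wider than their SD, but the order turned when the longest transcript was taken as the length, with 1382 per kb for *Zfp961* and 1186 for *Zfp936* over the 6 libraries. The exons of *Zfp961* also overlap those of *Cyp4f18* on the opposite strand, and whether the counting used strand is not given in the sources used here.

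The next 3 genes were *Zfp958* with 495 ± 39.9 normalized counts per kb in WT, *Zfp932* with 466 ± 10.2 and *Zfp930* with 460 ± 10.6, which did not differ from each other beyond their SD. In KO the levels were 550.0 ± 25.2 for *Zfp958*, 504 ± 11.9 for *Zfp930* and 478 ± 18.8 for *Zfp932*, and the gaps between neighbours in this order were wider than either SD. *Zfp932*, whose protein is known to bind and repress endogenous retroviruses of the ERVK class in ESCs, shares 42.6% of its 50-base windows with its paralog *Gm15446*, so its level depends on how such reads were assigned. With the longest transcript as the length, the means over the 6 libraries were 838 for *Zfp930*, 616 for *Zfp932* and 522 for *Zfp958*, so this order also turned.

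The 5 highest genes per kb had similar counts in both genotypes. *Zfp936* had normalized counts of 3849, 3495 and 3776 in the WT libraries, given here and below in the order of replicates 1 to 3, and 3848, 3371 and 3800 in the KO libraries (log2 fold change -0.01, SE 0.10). *Zfp961* had 3901, 3726 and 3727 in WT and 3777, 3642 and 3726 in KO (log2 fold change -0.03, SE 0.09). *Zfp932* had 1557, 1491 and 1531 in WT and 1631, 1556 and 1509 in KO (log2 fold change 0.04, SE 0.10). In all 3 genes the libraries of the genotypes overlapped, and the differences were smaller than their SE.

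*Zfp958* had 1271, 1153 and 1084 normalized counts in WT and 1339, 1330 and 1232 in KO (log2 fold change 0.15, SE 0.11, DESeq2 adjusted p = 0.568), with overlapping libraries. *Zfp930* had 2439, 2335 and 2421 in WT and 2597, 2590 and 2701 in KO (log2 fold change 0.13, SE 0.09, DESeq2 adjusted p = 0.526). Every KO library of *Zfp930* lay above every WT library, but the difference did not pass the test.

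**Figure D1:**
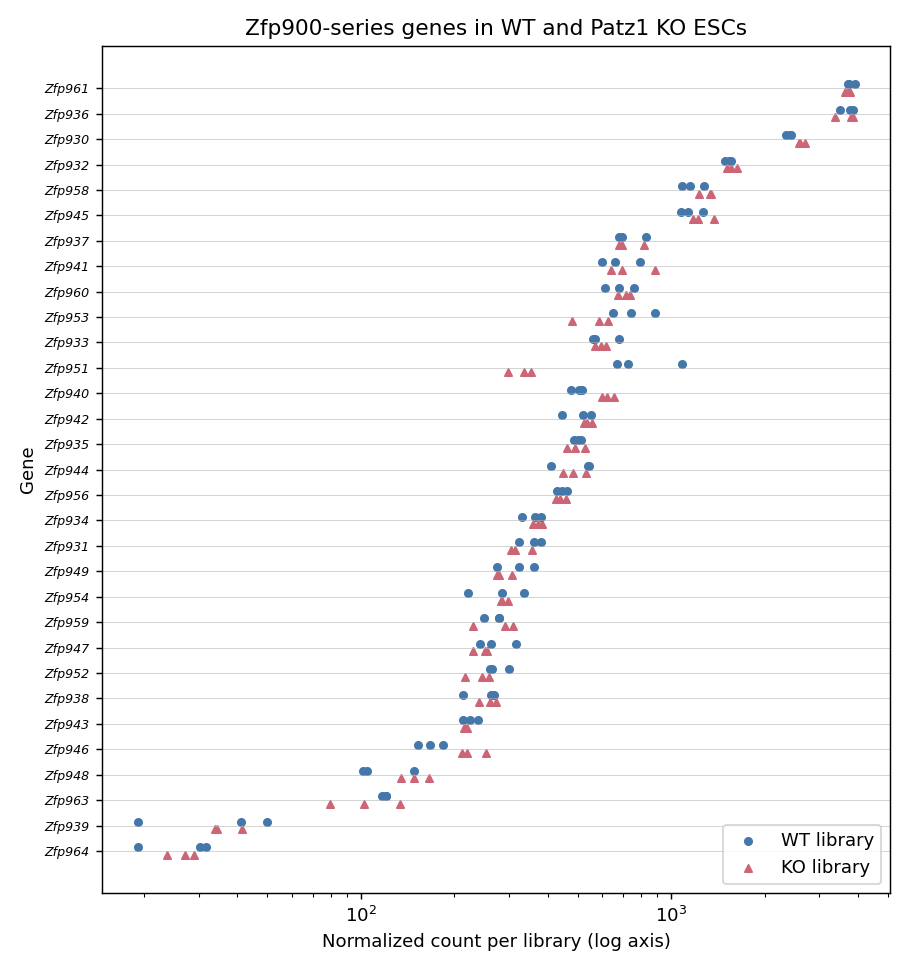
Normalized counts of the 31 detected Zfp900-series genes in each of the 3 WT (circles) and 3 KO (triangles) libraries, on a log axis, with genes ordered by their mean. The libraries of the genotypes lie together for most genes from *Zfp961* down to *Zfp964*, and those of *Zfp951* stand apart, with KO at 298 to 352 and WT at 671 to 1083.

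Between genotypes, a single gene of the 31 tested passed the threshold (adjusted p under 0.05, Wald test of DESeq2), *Zfp951*, which was lower in KO. This is 3.23% of the genes, beside 7.5% of all genes tested (1145 of 15264, with 2.71% higher and 4.79% lower) and 5.48% of the genes on autosomes other than chromosome 11. Among the other numbered Zfp genes, 14 of 306 passed (4.58%), 3 higher and 11 lower. These shares are set side by side, and the difference between them was not tested. Departures from the genotype means correlated between same-numbered WT and KO libraries, but libraries with different numbers were not compared. With the replicate number as a block, 3 of 31 genes passed (9.68%), *Zfp951* and *Zfp953* lower and *Zfp940* higher. Beside this, 14.7% of all genes passed (6.71% higher and 7.98% lower). The share was 11.5% on autosomes other than chromosome 11 and 9.24% among the other numbered Zfp genes.

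The median log2 fold change of the 31 detected genes was -0.01, beside 0.01 over all genes tested. The median of its absolute value was 0.10, beside 0.16 over all genes and 0.12 over the other numbered Zfp genes. Summed over the 31 detected genes, the level was 23553 ± 725 normalized counts in WT, against 23439 ± 460 in KO, which is 99.5% of WT. WT replicate 2 had the lowest sum (22729) and WT replicate 1 the highest (24096), so the KO libraries lay inside the range of WT. Without *Zfp951* the sum was 22727 ± 631 in WT and 23111 ± 438 in KO, so the direction of this small difference depended on that gene.

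Among the 30 detected genes that did not pass, 14 had a log2 fold change above 0 and 16 below 0, and 25 were within 0.2 of 0. Their 95% intervals all lay within a 2-fold change in either direction, and those of 24 lay within 1.5-fold. The interval bounds ran from -0.92 (*Zfp964*, with 7 counts in its lowest library) to 0.82 (*Zfp948*). *Zfp964* and *Zfp939*, the scarcest of the detected genes, had the widest intervals, and a difference inside them was not detectable at this depth. WT and KO libraries did not overlap for 6 of the 31 genes (19.4%), against 25.7% of all genes tested.

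**Figure D2:**
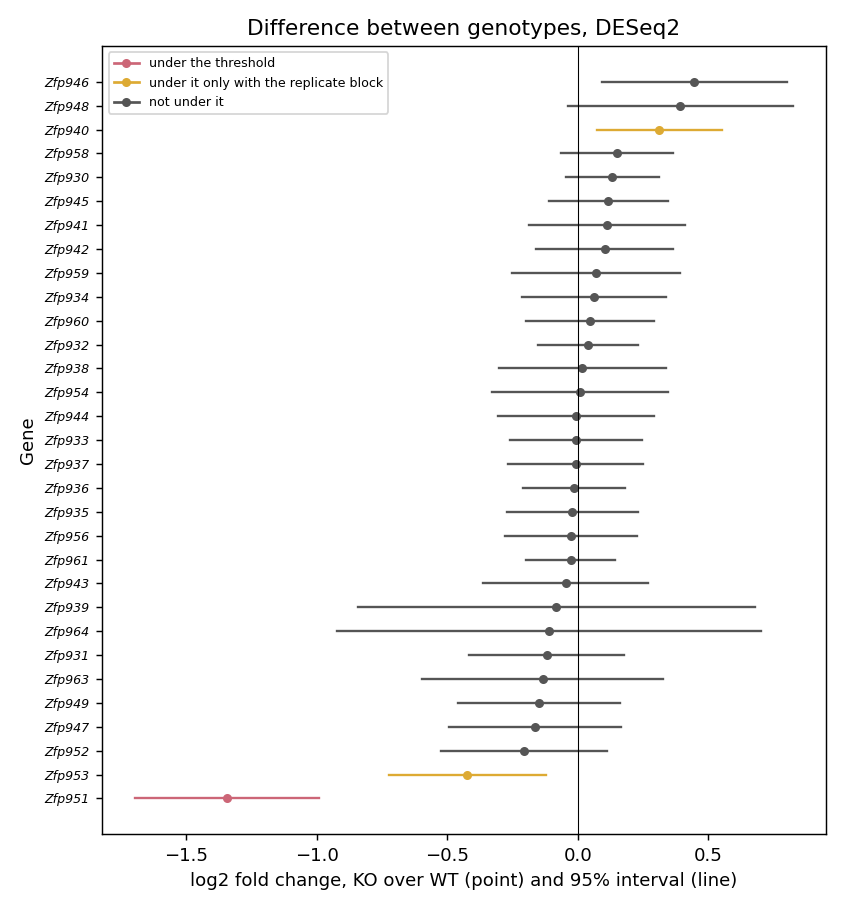
Log2 fold change of KO over WT from DESeq2 for the 31 detected Zfp900-series genes (points) with their 95% intervals (lines), ordered from highest to lowest. *Zfp951* at -1.34 is the gene under the threshold, *Zfp953* and *Zfp940* are under it with the replicate block.

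*Zfp951* was the gene with the widest difference. It lies at chr5:104813169-104860070 on the minus strand. Among the open reading frames of its transcripts, a KRAB pattern was found, and the frame with the most fingers held 10. Whether 1 frame holds both was not recorded. The WT libraries held 1083, 725 and 671 normalized counts, and the KO libraries 352, 298 and 336. Every KO library was below every WT library, and WT replicate 1 stood above the other WT libraries. The means were 826 ± 224 in WT and 329 ± 27.9 in KO, so KO held 39.8% of the WT level.

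The log2 fold change of *Zfp951* was -1.34 (SE 0.18, 95% interval -1.70 to -0.99, DESeq2 adjusted p = 1.59e-11). Within the replicate pairs 1, 2 and 3 it was -1.62, -1.28 and -0.997. Without WT replicate 1 the log2 fold change was -1.10, and the gene passed the threshold under every alternative run, with log2 fold changes from -1.48 to -1.10. Only 1.16% of the 50-base windows of its longest transcript also occur in transcripts of other genes, and no exon of another gene overlaps it. The exons outside that transcript were not searched.

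Markers of 2-cell-like cells, a rare state within ESC cultures, also moved with genotype. All 11 markers listed had a lower mean in KO. Of these, 5 passed the test, and 10 passed with the replicate block. None was at 0 in every library, and their summed normalized counts were 555, 3389 and 2349 in WT and 139, 473 and 468 in KO. In WT replicate 1, where *Zfp951* was highest, this sum was the lowest of WT. Sums of 5 primitive endoderm markers were 106 to 159 in WT and 143 to 201 in KO. Of these markers *Dab2* alone was higher in KO (32.6 ± 9.79 to 78.7 ± 18.9), and the other 4 had a lower mean in KO and did not pass. Sums of 5 fibroblast markers were 86.4 to 108 in WT and 134 to 169 in KO. *Thy1* carried this difference (72.5 ± 12.3 to 130 ± 22.7), *Col1a1*, *Col1a2* and *Lum* had a lower mean in KO and did not pass, and no library held more than 4 counts of *Col3a1* or *Lum*. The part of these cells in the result for *Zfp951* was not tested.

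The genes around *Zfp951* were then listed, a choice made after its value was seen. Within 500 kb on either side, 6 genes were tested and 1 passed, *Spp1*, which encodes the secreted protein osteopontin and lies 372 kb away. Its normalized counts fell from 11270 ± 2782 to 4233 ± 277 (log2 fold change -1.41, SE 0.15, DESeq2 adjusted p = 9.51e-19). The 3 tested genes between them did not pass: *Pkd2* had a log2 fold change of -0.21, *BC005561* of 0.22 and *D930016D06Rik* of 0.23. No other numbered Zfp gene was tested in this window.

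*Zfp953*, at chr13:67339306-67360605 on the minus strand, had 740, 651 and 890 normalized counts in WT and 628, 478 and 584 in KO. Every KO library was below every WT library, by little between KO replicate 1 and WT replicate 2. The log2 fold change was -0.42 (SE 0.15, DESeq2 adjusted p = 0.0682), and with the replicate block it was -0.41 (DESeq2 adjusted p = 0.00268). Within pairs it was -0.24, -0.44 and -0.61. Its exons overlap those of *Gm28041* and *Gm28044* on the same strand, and 5.21% of its windows are shared with other genes, so its counts may hold reads of these.

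*Zfp953* sits among other zinc finger genes. Within 500 kb, 31 genes were tested and 0 passed, with 1 at an unadjusted p under 0.05 (DESeq2), and 0 passed with edgeR, with limma-voom or with the replicate block. The 20 numbered Zfp genes among them had log2 fold changes from -0.42 to 0.19. The nearest gene, *Zfp456*, 1.51 kb away, was at 0.04 (SE 0.19). The lowest was *Zfp595*, 6.74 kb away on the other side, with -0.42 (SE 0.19, DESeq2 adjusted p = 0.195).

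**Figure D3:**
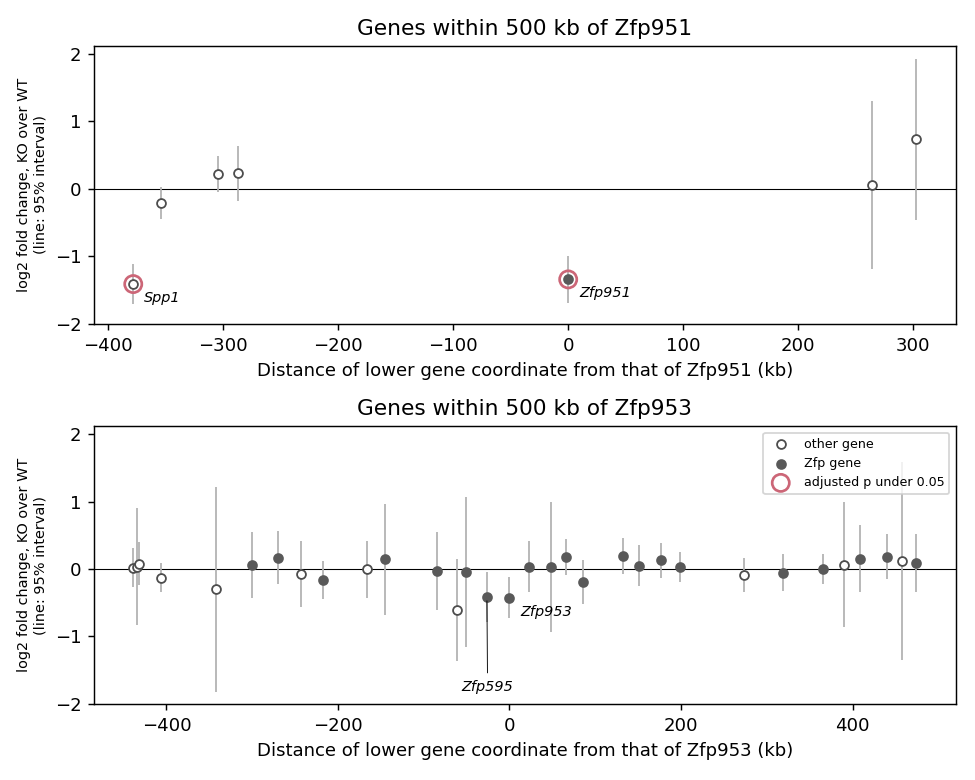
Log2 fold change of KO over WT (points, with 95% intervals as lines) of the genes tested within 500 kb of *Zfp951* (upper panel) and *Zfp953* (lower panel), by distance in kb between lower gene coordinates; filled points are numbered Zfp genes and rings mark genes under the threshold. *Spp1* and *Zfp951* stand at -1.41 and -1.34 with genes near 0 between them, and *Zfp953* and *Zfp595* are at -0.42, with *Zfp456*, the nearest gene to *Zfp953*, at 0.04.

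*Zfp940*, at chr7:29833620-29853669 on the minus strand, had 517, 505 and 474 normalized counts in WT and 622, 597 and 655 in KO, with every KO library above every WT library. The log2 fold change was 0.31 (SE 0.12, DESeq2 adjusted p = 0.105), and with the replicate block the adjusted p was 0.0452 (DESeq2). Within pairs it was 0.27, 0.24 and 0.47. The longest transcript of *Zfp940* is nearly its own in sequence, with 0.0819% of windows shared. Of 25 genes tested within 500 kb, 1 passed, *Wdr62*, at a log2 fold change of -0.50, and 2 passed with the replicate block, the other being *Zfp568*, at 0.15 (DESeq2 adjusted p with the block = 0.0414). The 14 numbered Zfp genes among them ranged from -0.17 to 0.23.

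*Zfp946*, at chr17:22424222-22456689 on the plus strand, had 153, 184 and 167 normalized counts in WT and 252, 211 and 219 in KO. The libraries did not overlap, and KO replicate 1 was the highest. Its log2 fold change of 0.44 (SE 0.18) was the highest of the 31 genes but did not pass (DESeq2 adjusted p = 0.125, and 0.0985 with the replicate block). *Zfp948* had 102, 105 and 148 in WT and 134, 165 and 148 in KO. WT replicate 3 reached the KO level here, and the log2 fold change of 0.39 (SE 0.22, DESeq2 adjusted p = 0.370) did not pass.

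**Figure D4:**
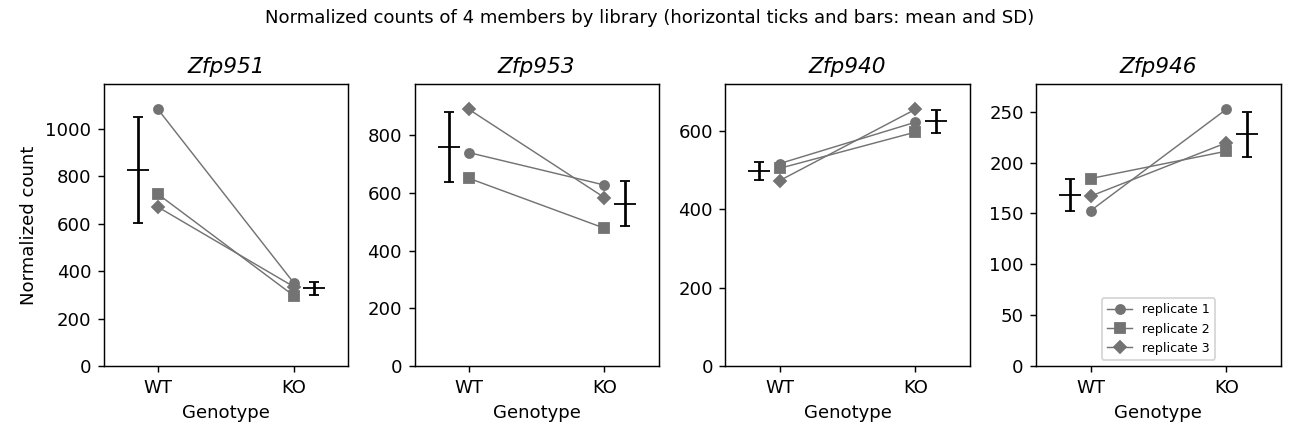
Normalized counts of *Zfp951*, *Zfp953*, *Zfp940* and *Zfp946* in each library, with lines joining WT and KO libraries of the same replicate number and horizontal ticks with bars for the mean and SD of the 3 libraries. In all 3 pairs *Zfp951* and *Zfp953* are lower in KO, and *Zfp940* and *Zfp946* are higher.

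The remaining genes at the low end differed by less. *Zfp952* had 299, 266 and 260 normalized counts in WT and 217, 259 and 246 in KO (log2 fold change -0.21, SE 0.16, DESeq2 adjusted p = 0.612). *Zfp947* had 242, 315 and 263 in WT and 230.3, 254 and 251 in KO (log2 fold change -0.17, SE 0.17). *Zfp949* had 323, 274 and 361 in WT and 274, 279 and 307 in KO (log2 fold change -0.15, SE 0.16). The libraries of *Zfp952* did not overlap, though WT replicate 3 and KO replicate 2 nearly met, and those of *Zfp947* and *Zfp949* overlapped.

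The genes were also grouped by position. With members within 500 kb of each other joined, 12 of the 32 fell into 3 clusters and 20 stood alone. The chromosome 17 cluster, from 21567008 to 22867134, held 7 genes (*Zfp942* to *Zfp948*) with log2 fold changes from -0.17 (*Zfp947*) to 0.44 (*Zfp946*). The chromosome 8 cluster held 3 genes, from -0.13 (*Zfp963*) to 0.13 (*Zfp930*), and the chromosome 13 cluster held *Zfp934* and *Zfp935*, at 0.06 and -0.02. In these clusters 0 of 12 genes passed with DESeq2, edgeR, limma-voom or the replicate block, and 1 (*Zfp946*) had an unadjusted p under 0.05. Beside this, 7.5% of all genes passed with DESeq2, and 14.7% with the block. The difference was not tested, and 12 genes are too few to tell a count of 0 from these shares.

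Sequence shared with other genes limits some of these values. More than 30% of the 50-base windows of the longest transcript were shared with other genes for 6 members, namely *Zfp932*, *Zfp934*, *Zfp935*, *Zfp937*, *Zfp960* and *Zfp963*. *Zfp935* shared 100% of its windows, 99.2% with the overlapping *Gm49359*, and *Zfp960* shared 83.3% with *Zfp97*. For 18 members the share was under 5%. The counts of the first group are uncertain, since the handling of reads with several matches is not given in the sources used here.

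Members of the pathway through which KRAB zinc finger proteins act were taken from a list of 40 genes of the TRIM28 complex, its partners, DNA methylation and H3K9 methylation. Of these, 5 passed (12.5%, beside 7.5% of all genes tested), 4 higher and 1 lower, and with the replicate block 10 passed (25%, beside 14.7%), 7 higher and 3 lower. With edgeR 2 passed and with limma-voom 3. *Trim28* itself was at 37892 ± 4248 normalized counts in WT, against 37409 ± 2968 in KO (log2 fold change -0.02, SE 0.11), and *Setdb1* had 5220 ± 455 and 4803 ± 344 (log2 fold change -0.12, SE 0.10). Neither passed.

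*Atf7ip*, which encodes the partner that stabilises SETDB1, fell from 1514 ± 162 to 1060 ± 81.2 normalized counts (log2 fold change -0.51, SE 0.12, DESeq2 adjusted p = 0.000648). *Chd3*, a chromatin remodeller of the NuRD complex that lies on chromosome 11, rose from 427 ± 103 to 899 ± 177 (log2 fold change 1.09, SE 0.18, DESeq2 adjusted p = 1.23e-07). These 2 genes passed under every alternative run. *Chd4*, a relative of *Chd3* (log2 fold change 0.31), *Dnmt3l*, a cofactor of de novo DNA methylation (0.53), and *Atrx*, a remodeller of heterochromatin on X (0.40), were also higher. Each of the 3 calls was lost under several alternatives, over which the log2 fold change ran from 0.26 to 0.36 for *Chd4*, 0.40 to 0.69 for *Dnmt3l* and 0.21 to 0.52 for *Atrx*, and all 3 passed with the replicate block (DESeq2 adjusted p of 3.81e-08, 1.36e-13 and 6.52e-11). With chromosome centring, *Atrx* had a log2 fold change of 0.21 (DESeq2 adjusted p = 0.451, and 0.000801 with the block as well).

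Among KRAB zinc finger genes with known targets outside the series, *Zfp57*, which keeps imprints, was at 6584 ± 489 normalized counts in WT, against 6746 ± 500 in KO (log2 fold change 0.04, SE 0.10). *Zfp809*, which silences retroviruses that use the proline tRNA, fell from 1058 ± 110 to 781 ± 76.3 (log2 fold change -0.45, SE 0.13, DESeq2 adjusted p = 0.0103). With WT replicate 1, WT replicate 2 or KO replicate 2 left out in turn, the log2 fold change was -0.36, -0.47 and -0.37, and the call was lost (DESeq2 adjusted p = 0.2004, 0.0718 and 0.190). With the replicate block it was -0.46 (DESeq2 adjusted p = 6.47e-05).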

How the data were processed

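Total RNA of 3 WT and 3 KO libraries was sequenced. The authors deposited raw read counts per gene symbol, one table per library, on mm10; TopHat2, Bowtie2, featureCounts and DESeq2 are named in the submitters' processing notes, and the annotation, strand setting and handling of reads with several matches are not given in the sources used here. Groups and replicate numbers came from the sample titles.

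The 19404 symbols with a count were fitted with the Wald test of DESeq2 1.42.0 (two-sided, genotype alone, independent filtering at 0.1, Benjamini-Hochberg over all genes tested, threshold 0.05), as the study's methods state for the test and threshold. Intervals are the fold change ± 1.96 SE. The study's figure legends call the RNA-seq libraries biological replicates, and the labels do not say whether they came from separate cultures or passages of the line, so p-values measure the spread between these libraries. Counting error and library depth limit the scarce genes. Alternatives were edgeR 4.0.16, limma-voom (limma 3.58.1), TMM size factors, a count filter, no independent filtering, the replicate block, chromosome centring with and without it, and leaving out libraries; the share on autosomes other than 11 was added after the data were seen. For the block, libraries were paired by the replicate numbers of the titles. The departures from the genotype means in libraries with the same number correlated at 0.469, 0.619 and 0.684 over 11524 genes. Libraries with different numbers were not compared, so these values do not show that the numbers pair the libraries. Calls made with the block assume this pairing.

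Positions, exon lengths, open reading frames and shared 50-base windows came from GENCODE M21 (GRCm38), start regions from RefSeq. Windows were taken from the longest transcript of each member. Fingers were counted as C-x2-4-C-x12-H-x3-5-H. The code was tested on simulated data. Genes described are those that passed, the 5 highest per length, and the 5 highest and 5 lowest log2 fold changes with a mean of at least 20 normalized counts; others named outside this rule were chosen after their values were seen. The members and lists were chosen with earlier results of these data known.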

Additional observations from a re-analysis of the deposited data

How the results depend on the processing

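Of the Zfp900-series genes, 1 passed in every alternative but these: 3 passed with the replicate block, which brought *Zfp953* and *Zfp940* under the threshold, and 2 with chromosome centring and the block (*Zfp951* and *Zfp953*). *Zfp951* passed throughout. Of the corepressor genes, 2 passed with edgeR, 3 with limma-voom, 10 with the block and 10 with centring and the block, and 2 to 6 with a library left out (WT replicate 1 gave 3, and WT replicate 2, KO replicates 1 and 3 gave 2 each). Of the other numbered Zfp genes, 28 passed with the block, 25 with centring and the block, and 7 to 17 with a library left out (WT replicates 1 and 2 and KO replicate 1 gave 7 each, and KO replicate 2 gave 8). Over all genes, 2132 passed with the block, 961 with edgeR and 1190 with limma-voom, and 583 to 1328 with a library left out (WT replicate 1 gave 587, WT replicate 2 gave 667, KO replicate 1 gave 583, KO replicate 2 gave 592). The block changed no other call among the named Zfp900-series genes. No call reversed its direction, but values near 0 changed sign with a library left out: the median log2 fold change of the Zfp900-series genes ran from -0.02 to 0.01 over the alternatives, and those of *Zfp936* (-0.05 to 0.05), *Trim28* (-0.11 to 0.05) and *Zfp57* (-0.03 to 0.08) also crossed 0. The levels per kb of *Zfp961*, *Zfp930* and *Zfp932* rose to 1382, 838 and 616 with the longest transcript as the length, which is shorter than the joined exons. Apart from that, the cause of these shifts was not tested. Depth limits the scarce genes *Zfp939*, *Zfp957* and *Zfp964*.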
